A study of Mus musculus with 6 samples.

Results

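The genes described here encode 57 factors of ribosome biogenesis, chosen by symbol: RNA polymerase I subunits and initiation factors, small nucleolar ribonucleoprotein (snoRNP) proteins, nucleolar chaperones and the assembly factors of the small and large ribosomal subunits. The list was chosen with earlier results of these data known, so the shares of it that rose are a description and not independent support. All 57 were among the 24972 gene symbols of the table, and all 57 were among the 14456 genes tested, those that reached a normalized count of 10 in 3 or more libraries. The lowest value of any of them in any library was 129.6. The RNA-Seq compared lung endothelial cells (iLECs) from 3 control and 3 *Atp6ap2*-iECKO (iECKO) samples at P7, each sequenced as 1 library. The labels give the genotype of controls as *Atp6ap2* fl/Y and that of iECKO samples as *Atp6ap2* fl/Y with *Cdh5*-CreERT2+. Pups of both genotypes received tamoxifen (100 μg) on P1, P2 and P3, and controls carried the floxed allele without Cre. The Cre transgene used the promoter of *Cdh5*, a cadherin of endothelial cells. The strain is C57BL/6 in the labels and a mix of CD1 and C57BL/6 in the study's methods. Cells were taken from digested lungs with beads coated with an antibody to CD31, and the sources used here do not say whether animals were pooled or came from separate litters, so the spread between replicates may be partly technical.

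Ribosomes are made in the nucleolus. RNA polymerase I transcribes a long precursor of the ribosomal RNAs, box C/D and box H/ACA snoRNPs modify it (by methylation of riboses and by conversion of uridine to pseudouridine), and a large assembly called the small-subunit processome folds and cleaves it. The pre-40S and pre-60S particles then mature separately and leave for the cytoplasm. Dividing cells make many ribosomes, and many of these factors are known targets of the transcription factor MYC.

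*Atp6ap2*, the deleted gene, was measured at 7490.2, 5815 and 5681 in replicates 1, 2 and 3 of controls and 4219.9, 2336 and 1982 in those of iECKO (normalized counts), with a log2 fold change of -1.22 (SE 0.26, adjusted P = 0.0306 from limma). iECKO replicate 1 kept the most of the 3 iECKO libraries. Although every sample is labelled fl/Y, *Xist*, transcribed from the inactive X chromosome, was at 37704 and 44402 in control replicates 1 and 2 and at 39442 and 47487 in iECKO replicates 1 and 3, against 31.7 and 19.3 in the other two libraries. Those 4 libraries therefore go against their labels. The study itself used neonates of both sexes, and its control and iECKO groups include fl/fl females. Totals of normalized counts ran from 26359661 to 28725799 in controls and from 26243878 to 27221581 in iECKO. Relative depth was estimated from the commonest low value of each library, taken as the step between its values. It was 1.00 to 1.04 times the lowest of the 6 in controls and 1.25 to 1.55 times in iECKO libraries. Only 19.4% to 37.4% of the low values of a library fell on the steps that this value implies, so these depths are uncertain. All iECKO estimates lay above all control estimates, so depth and genotype cannot be told apart. The sum of the 15 endothelial markers was 359736 to 469294 in controls and 378780.0 to 439774 in iECKO, and none of them was at 0 in any library. The sum of the 15 fibroblast markers was 85293 to 130469 in controls and 29508 to 43892 in iECKO, with 10 of 14 tested markers lower. For the 13 mural and smooth muscle markers it was 25949 to 37517 and 10217 to 13408, with 9 lower. Of all genes tested 4.97% were lower. The sum of the 13 epithelial markers was 26907 to 72596 in controls and 33261 to 40559 in iECKO. Control replicate 3 stood apart, with a median log2 difference of these markers from the control mean of 0.94 against -0.39 and -0.47 in control replicates 1 and 2. Of the fibroblast and mural lists only *Lum*, which was not tested, was at 0 in any library. The part of these differences in cell makeup, depth and *Xist* in the values that follow was not tested, and fewer cells of a type cannot be told apart from less RNA per cell.

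Ribosome biogenesis genes were higher in iECKO iLECs. Of the 57 genes, 25 rose at an adjusted P value below 0.05, or 43.9%, where 3.28% of all tested genes rose. None fell, where 4.97% of all tested genes fell (limma with Benjamini-Hochberg adjustment). The fold change was above 0 for 56 of 57 genes, where it was above 0 for 50.7% and below 0 for 49.3% of all genes tested. The median log2 fold change was 0.45, or 1.37-fold, with a range from -0.07 to 1.21, and the median standard error of a gene was 0.14. The median over all tested genes was 0.0049. In 42 genes every iECKO library was above every control library, or 73.7% against 14.7% of all genes tested. These 42 include all 25 genes that passed. Unadjusted P values were below 0.05 for 44 genes with a higher level (77.2%, against 11.6% of all genes) and for none with a lower level (12.3% of all genes). Of the 32 genes that did not pass, 17 had no overlap between genotypes and 9 had an adjusted P value below 0.1. Together the 57 genes made up 0.237%, 0.265% and 0.245% of the normalized counts in control replicates 1, 2 and 3 and 0.311%, 0.369% and 0.381% in iECKO replicates 1, 2 and 3. The mean share was 0.249% ± 0.0144 in controls and 0.353% ± 0.0375 in iECKO (SD, n = 3 each), and the libraries of the genotypes did not overlap.

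The number of genes that passed depended on single libraries and on the model of the variance. It was 9 without control replicate 1 (1.92% of all genes rose), 17 without control replicate 2 (3.22%) and 27 without iECKO replicate 1 (2.54%). It was 1 without control replicate 3 (0.455%), where only *Gar1* passed. Control replicate 3 is the library with the high epithelial markers and also the only control with low *Xist* (31.7). The part of either in this count was not tested. Without iECKO replicate 2 (0.223%) or iECKO replicate 3 (0.196%) it was 0 by limma, with 34 and 35 genes higher at an unadjusted P value below 0.05, where 8.74% and 7.84% of all genes were. With a term for *Xist* it was 12 (1.72%). Among the 4 libraries with *Xist* above 1000 alone it was 0 (0% of 14094 genes), with 30 ribosome biogenesis genes higher at an unadjusted P value below 0.05, where 7% of all genes were. When libraries were scaled to their endothelial markers, a setting added after seeing the data, it was 4 (0.968%), namely *Npm1*, *Tsr1*, *Gnl3* and *Fbl*. Without the trend of variance on level it was 1 (0.477%), namely *Gar1*, and these names were chosen after their values were seen. At an adjusted P value below 0.01 it was 0 (0.0553%) and below 0.1 it was 34 (6.28%).

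Other settings moved the number less. It was 25, 27 and 30 with library size, upper quartile and quantile scaling, where 3.96%, 3.58% and 4.25% of all genes rose. It was 21 with no filter and 28 with a minimum of 50 (2.19% and 4.14%), 25 and 24 with pseudocounts of 0.5 and 10 (3.24% and 3.35%), and 28 with robust empirical Bayes (3.25%). None of the 57 genes fell in any fit or at any threshold, where 0% to 7.46% of all genes did. The fold change was above 0 for 54 to 57 of the genes in each of the 19 alternative fits, and their median stayed between 0.43 and 0.56. Those with another filter or variance model, or with a term for *Xist* or replicate number, left these fold changes unchanged by design.

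**Figure D1:**
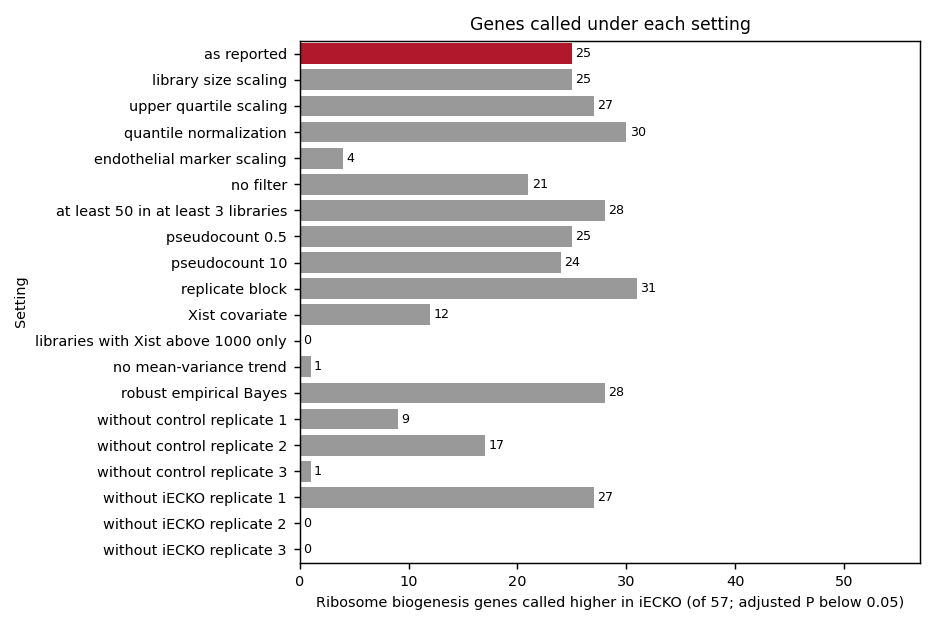
Bars give the number of the 57 ribosome biogenesis genes higher in iECKO at an adjusted P value below 0.05 under each setting, with the reported fit in red (25 genes). The number lay between 0 and 31, and was 0 without iECKO replicate 2, without iECKO replicate 3 and with the 4 libraries with Xist above 1000 alone.

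The size of the difference varied among libraries. Relative to the control mean, the median log2 difference over the 57 genes was -0.10, 0.10 and -0.0048 in control replicates 1, 2 and 3 and 0.30, 0.55 and 0.56 in iECKO replicates 1, 2 and 3. iECKO replicate 1 was the lowest of the 3 iECKO libraries for 55 of the 57 genes and iECKO replicate 3 for the other 2. It exceeded all controls for 43 genes, against 55 for iECKO replicate 2 and 53 for iECKO replicate 3. The share of all tested genes above all controls was 27.3%, 30.1% and 32.4% in the same order. Among controls, replicate 1 was the lowest for 33 genes and replicate 2 the highest for 36. Which library was lowest or highest within a genotype was not counted over all tested genes. These counts therefore cannot be read as particular to the 57 genes.

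**Figure D2:**
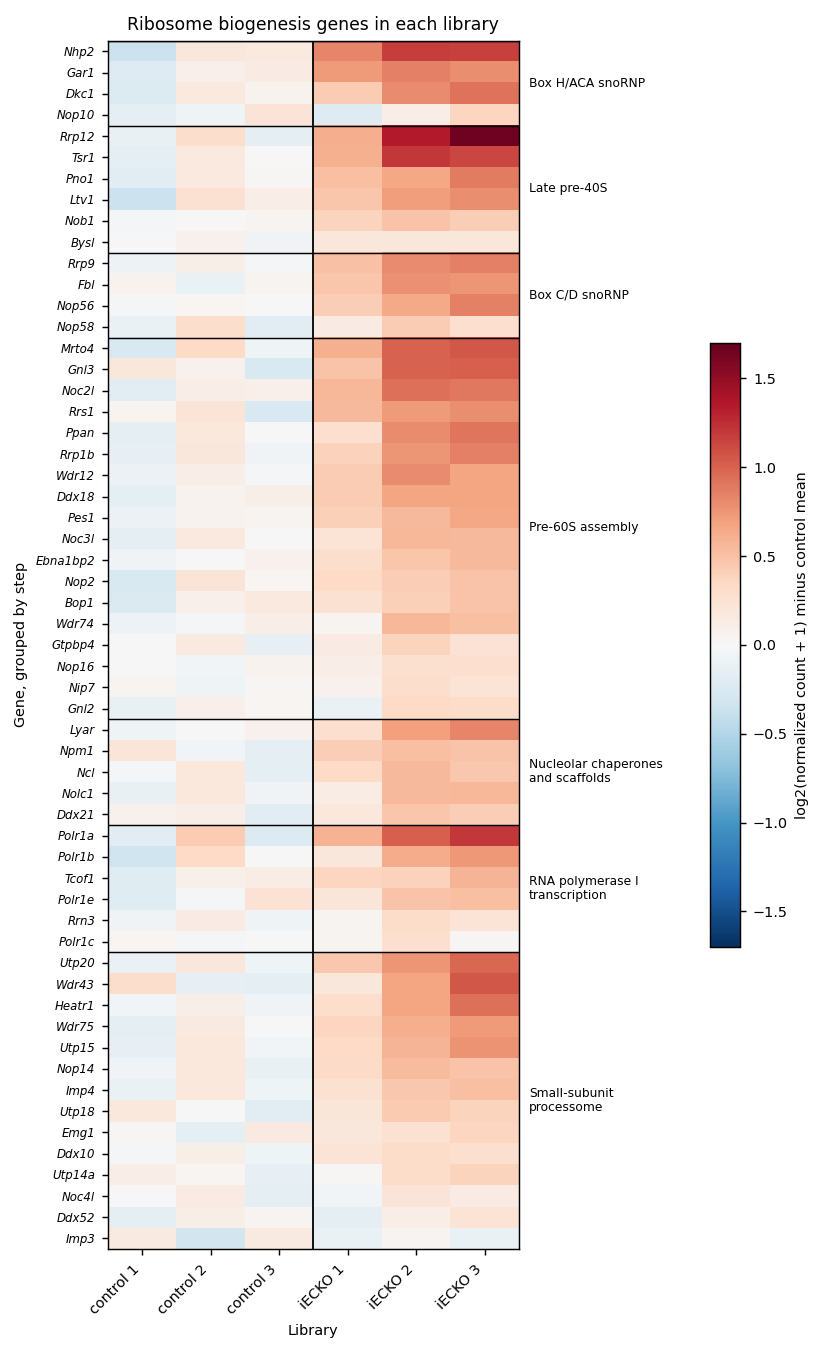
Colors give the log2 of the normalized count plus 1 minus the control mean for each of the 57 genes (rows, grouped by step) in each of the 6 libraries (columns). The 3 iECKO columns are mostly red, palest in iECKO replicate 1, whose median difference was 0.30 against 0.55 and 0.56 in iECKO replicates 2 and 3.

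The genes were sorted into 7 steps to see which rose most. The median log2 fold change was highest for the 4 box H/ACA snoRNP genes (0.75), followed by the 6 late pre-40S factors (0.67) and the 4 box C/D snoRNP genes (0.65). The 18 pre-60S assembly factors (0.49), the 5 nucleolar chaperones and scaffolds (0.45), the 6 RNA polymerase I genes (0.42) and the 14 processome genes (0.37) were lower. By library, box H/ACA snoRNP genes were at 0.58, 0.83 and 0.86 in iECKO replicates 1, 2 and 3, the highest of the 7 steps in each. Processome genes were at 0.22, 0.45 and 0.43, the last or next to last in each. Box H/ACA, late pre-40S and box C/D genes took the first 3 places in all 3 iECKO libraries and in all 19 alternative fits, with box H/ACA genes first in 18 of them. The fits that changed only the filter or variance model, or added a term for *Xist* or replicate number, could not alter this order. They leave the fold changes of these genes as they are. No difference between steps was tested, and neighbors in this order differed by less than the SD of either step's median between libraries of a genotype (0.11 to 0.18 over the 7 steps), except box C/D and pre-60S genes, whose medians differed by more than their SDs of 0.14 and 0.13. Without control replicate 1, box C/D genes were first (0.65) and box H/ACA genes next (0.64). The ranges of all 7 steps overlapped, and the narrowest was that of the nucleolar chaperones and scaffolds, from 0.36 to 0.60.

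**Figure D3:**
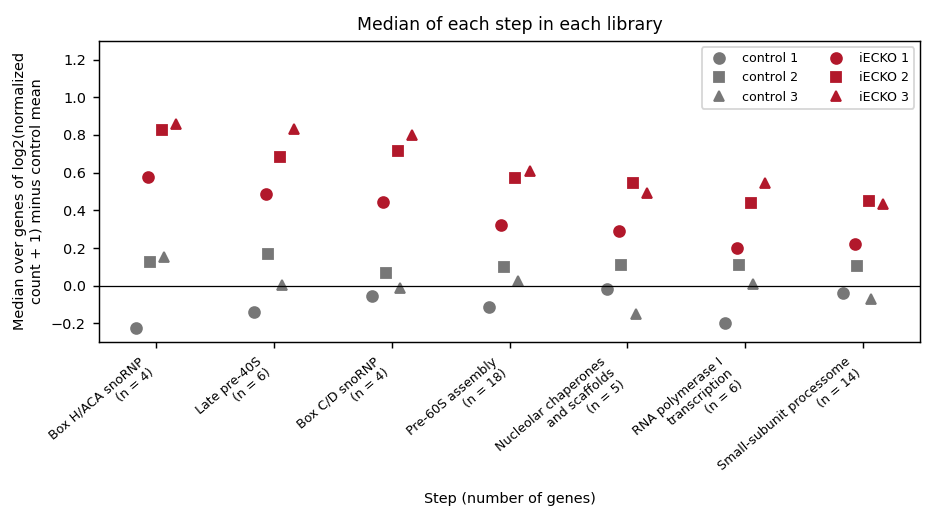
Points give, for each step and library, the median over the step's genes of the log2 of the normalized count plus 1 minus the control mean (gray, controls; red, iECKO). Every iECKO point lies above every control point of its step, and box H/ACA genes are highest in each iECKO library (0.58, 0.83 and 0.86).

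Promoter sequence was read from RefSeq (GRCm38.p6), which held 54 promoters for 50 of the 57 genes, to see which short motifs genes that move together share. Within the 250 bases before the start, the E-box CACGTG, the letters bound by MYC and related factors, which reads the same on both strands, was found in 4 of 54 promoters (7.41%), against 7.88% of the 14269 promoters of tested genes and 6.02% of all 32851. Over the whole 300 bases, which include the first 50 after the start, it was in 10 of 54 (18.5%), against 9.44% and 7.15%. The ETS core CCGGAAG was in 12 of 54 upstream windows (22.2%), against 12.4% and 6.91%. Over the 300 bases it was in 20 of 54 (37.0%), against 16.0% and 8.86%, so a higher share there was not particular to the E-box. Upstream, the GC box GGGCGG was in 59.3%, against 55.8% and 32.7%, and TATAAA in 5.56%, against 6.78% and 12.4%. Over the 300 bases the GC box was in 68.5%, against 60.5% and 35.7%, and TATAAA in 5.56%, against 7.54% and 13.6%. All motifs were searched on both strands, and matches of different motifs may share bases at their ends. No motif was tested for enrichment, and a match is a description of the letters and not a binding site. The upstream E-boxes of the 4 genes that have one are shown in capitals, 5′ to 3′ on the strand of the gene, because the E-box is the motif of MYC.
Nop2, chr6:125131796-125131855 (+): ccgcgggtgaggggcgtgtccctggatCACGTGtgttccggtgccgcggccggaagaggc
Imp4, chr1:34439696-34439725 (+): acggtcttagacCACGTGacatcccaaatc
Utp18, chr11:93885767-93885813 (-): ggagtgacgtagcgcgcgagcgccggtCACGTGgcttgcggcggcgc
Rrn3, chr16:13780457-13780516 (+): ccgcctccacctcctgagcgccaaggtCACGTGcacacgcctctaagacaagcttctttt
Rrn3, chr16:13780624-13780683 (+): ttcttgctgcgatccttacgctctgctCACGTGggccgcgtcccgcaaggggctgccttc
The last base of the E-box lies 55 bases before the start of *Nop2*, 116 before that of *Imp4* and 15 before that of *Utp18*, and the pair in *Rrn3* lies 210 and 43 bases before it. The log2 fold changes of these genes were 0.42, 0.41, 0.34 and 0.20, and none of the 4 had an adjusted P value below 0.05. The ETS cores, or their reverse complement CTTCCGG, are shown in capitals for the 4 genes with the highest fold change among the 12 genes that hold one, chosen after their values were seen, since the share of promoters with this motif exceeded that of tested genes by the widest ratio of the 4 upstream.
Nhp2, chr11:51619739-51619767 (+): cacttgaaaacCCGGAAGtgatgtcggag
Gar1, chr3:129831413-129831459 (-): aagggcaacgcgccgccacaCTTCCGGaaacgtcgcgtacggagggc
Ltv1, chr10:13193209-13193255 (-): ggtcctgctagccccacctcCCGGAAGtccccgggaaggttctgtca
Ltv1, chr10:13193175-13193203 (-): ggctcacgcaaCTTCCGGctacagcctag
Heatr1, chr13:12395348-12395374 (+): gtagtgagaagCCGGAAGttcctatga
Of these genes *Nhp2*, *Gar1* and *Heatr1* rose in iECKO and *Ltv1* (adjusted P = 0.065) did not pass. The windows of *Imp4*, *Nhp2* and *Heatr1* overlap an exon of the GENCODE annotation and are kept short, as is the second window of *Ltv1*. Those of *Nhp2* and *Heatr1* lie before the RefSeq start used here but past the GENCODE start of the gene.

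Box H/ACA snoRNPs convert uridine to pseudouridine in ribosomal RNA and consist of the enzyme dyskerin (*Dkc1*) and 3 small proteins, *Nhp2*, *Nop10* and *Gar1*. *Nhp2*, on chromosome 11 of GRCm38 from 51619735 to 51623714, had counts of 191, 283 and 277 in replicates 1, 2 and 3 of controls and 438, 557 and 551 in those of iECKO. Its mean rose from 250.5 ± 51.7 (SD, n = 3) in controls to 516 ± 67.2 (SD, n = 3) in iECKO (log2 fold change 1.05, SE 0.19, adjusted P = 0.0197), the next highest fold change after *Rrp12*. *Gar1*, on chromosome 3 of GRCm38 from 129824912 to 129831396, was at 254, 312 and 324 in controls and 488, 533 and 512 in iECKO (log2 fold change 0.79, SE 0.14, adjusted P = 0.0173). Both genes were without overlap, where 14.7% of all genes tested had none in this direction. *Dkc1*, on the X chromosome, also rose (log2 fold change 0.72, SE 0.16, adjusted P = 0.0368). *Nop10*, on chromosome 2 of GRCm38 from 112261926 to 112263269, behaved otherwise. Its counts were 332, 352 and 432 in controls and 317, 398 and 477 in iECKO, so that the lowest value of all was in iECKO replicate 1 and the genotypes overlapped (log2 fold change 0.08, SE 0.18, adjusted P = 0.827). Its fold change was below 0 without iECKO replicate 3.

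The factors sorted here as late pre-40S take part in the maturation of the small subunit. Their separation from the processome genes rests on the sorting used here. *Rrp12*, which takes part in the export of the particles, had the highest fold change of all 57 genes. It lies on chromosome 19 of GRCm38 from 41862851 to 41896173, and its counts were 248, 334 and 242 in replicates 1, 2 and 3 of controls and 419, 692 and 858 in those of iECKO. Its mean rose from 275 ± 51.3 (SD, n = 3) in controls to 656 ± 222 (SD, n = 3) in iECKO (log2 fold change 1.21, SE 0.26, adjusted P = 0.0334), and iECKO replicate 1 was the lowest iECKO library. *Tsr1*, a factor related to GTPases that sits on pre-40S particles, was at 759.8, 945 and 839.8 in controls and 1284, 1939 and 1864 in iECKO. Its mean rose from 848 ± 92.7 (SD, n = 3) in controls to 1695 ± 359 (SD, n = 3) in iECKO (log2 fold change 0.98, SE 0.17, adjusted P = 0.0163), and it lies on chromosome 11 of GRCm38 from 74898071 to 74909342. The exons of *Tsr1* overlap those of *Srr*, on the opposite strand, over 32.3% of their length, and *Srr* itself had a log2 fold change of 0.18 (adjusted P = 0.42). *Pno1* and the endonuclease *Nob1*, its partner in forming the end of the small ribosomal RNA, rose as well, at 0.68 (adjusted P = 0.0373) and 0.43 (adjusted P = 0.0482). *Ltv1* had a log2 fold change of 0.65 and did not pass (adjusted P = 0.065). *Bysl* had the lowest fold change of the step, with counts of 1182, 1253 and 1144 in controls and 1364.1, 1364.6 and 1365.5 in iECKO (log2 fold change 0.20, SE 0.08, adjusted P = 0.184). The libraries of the genotypes did not overlap for any of the 6 genes (14.7% of all genes tested had none in this direction), including *Bysl*, which lies on chromosome 17 of GRCm38 from 47599331 to 47611492.

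Box C/D snoRNPs add methyl groups to the ribose of ribosomal RNA. *Fbl*, the methyltransferase fibrillarin, had the smallest adjusted P value of the 57 genes. It lies on chromosome 7 of GRCm38 from 28169710 to 28179269, and its counts were 1152, 1025 and 1143 in replicates 1, 2 and 3 of controls and 1526, 1897 and 1859.7 in those of iECKO (log2 fold change 0.67, SE 0.11, adjusted P = 0.0146). *Nop56*, a core protein of the particle on chromosome 2 of GRCm38 from 130274430 to 130279313, was at 1243, 1292 and 1261 in controls and 1691, 1984 and 2288 in iECKO (log2 fold change 0.64, SE 0.12, adjusted P = 0.0192). Its controls differed little, at 1265 ± 24.9 (SD, n = 3), and its iECKO libraries ranged more, at 1988 ± 299 (SD, n = 3). *Rrp9*, which is particular to the U3 snoRNP that guides cleavage of the precursor, was at 268, 305 and 281 in controls and 401, 499 and 514 in iECKO (log2 fold change 0.72, SE 0.14, adjusted P = 0.0258) and lies on chromosome 9 of GRCm38 from 106475963 to 106485424. These 3 genes had no overlap between genotypes, where 14.7% of all genes tested had none in this direction. *Nop58*, the partner of *Nop56* on chromosome 1 of GRCm38 from 59684971 to 59719044, was at 2534, 3356 and 2411 in controls and 3011, 3677 and 3342 in iECKO. Control replicate 2 exceeded iECKO replicates 1 and 3, and *Nop58* did not pass (log2 fold change 0.28, SE 0.14, adjusted P = 0.261).

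Of the 18 pre-60S assembly factors 9 rose and 15 had no overlap between genotypes, against 3.28% and 14.7% of all genes tested. *Mrto4*, which holds the place of a stalk protein on the pre-60S particle, had the highest fold change of the step. Its counts were 211, 322 and 240.4 in replicates 1, 2 and 3 of controls and 388, 511 and 527 in those of iECKO (log2 fold change 0.89, SE 0.20, adjusted P = 0.0353), and it lies on chromosome 4 of GRCm38 from 139347435 to 139352576. *Noc2l*, on chromosome 4 of GRCm38 from 156236010 to 156247616, was at 697, 864 and 849 in controls and 1179.7, 1537 and 1495 in iECKO (log2 fold change 0.80, SE 0.14, adjusted P = 0.0161). Its exons overlap those of *Samd11*, on the opposite strand, over 20.9% of their length, and *Samd11* had a log2 fold change of 0.69 (adjusted P = 0.161) at 107 ± 24.2 in controls (SD, n = 3). *Gnl3*, or nucleostemin, a nucleolar GTPase, was also among the higher genes (0.83, adjusted P = 0.0291). *Pes1*, *Wdr12* and *Bop1* form a complex needed for the maturation of the large subunit. *Pes1*, on chromosome 11 of GRCm38 from 3963975 to 3980004, was at 895, 1001 and 992 in controls and 1269, 1404 and 1515 in iECKO (log2 fold change 0.53, SE 0.10, adjusted P = 0.0215). *Wdr12* rose too (0.64, adjusted P = 0.0408), and *Bop1* had 0.38 (adjusted P = 0.124) with no overlap between genotypes. The other genes of the step that rose were *Rrs1* (0.69, adjusted P = 0.0299), *Rrp1b* (0.67, adjusted P = 0.0405), the helicase *Ddx18* (0.59, adjusted P = 0.0271) and *Ebna1bp2* (0.44, adjusted P = 0.0376). Among those that did not pass, *Ppan* was at 0.67, *Noc3l* at 0.45, the methyltransferase *Nop2* at 0.42, *Wdr74* at 0.37, the GTPase *Gtpbp4* at 0.25, *Nop16* at 0.23 and *Nip7* at 0.20. *Gnl2*, a nucleolar GTPase like *Gnl3* on chromosome 4 of GRCm38 from 125016585 to 125055380, had the lowest fold change of the step. Its counts were 1003, 1161 and 1116 in controls and 1012, 1381 and 1358 in iECKO, and iECKO replicate 1 lay among the controls (log2 fold change 0.18, SE 0.14, adjusted P = 0.47).

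Of the 5 nucleolar chaperones and scaffolds, 4 had no overlap between genotypes and 1 rose, where 14.7% and 3.28% of all genes tested did. The gene that rose was *Npm1*, or nucleophosmin, at 9396, 7856 and 7330.0 in controls and 10936, 11608 and 11449.7 in iECKO (log2 fold change 0.48, SE 0.10, adjusted P = 0.0343). Transcripts of 3 other annotated genes match *Npm1* at 95% identity or more over at least 30% of its length, so some of its reads may be shared. *Imp3*, *Pes1*, *Mrto4* and *Ddx18* have 1 or 2 such near-identical genes each. *Ncl*, or nucleolin, was at 16132, 18464 and 14601 in controls and 20678, 23953 and 22371 in iECKO (log2 fold change 0.45, SE 0.11, adjusted P = 0.0509) and *Lyar*, a nucleolar zinc finger protein on chromosome 5 of GRCm38 from 38220470 to 38234306, at 387, 409.7 and 428 in controls and 498, 661 and 726 in iECKO (log2 fold change 0.60, SE 0.16, adjusted P = 0.0531). Both missed the threshold narrowly although no library overlapped. *Ddx21*, an RNA helicase that couples polymerase I transcription to processing, lies on chromosome 10 of GRCm38 from 62580251 to 62602281 and was at 5948, 6106 and 4997 in controls and 6423, 7835 and 7576 in iECKO (log2 fold change 0.36, SE 0.11, adjusted P = 0.0973). *Nolc1*, a chaperone of snoRNPs, had 0.41 (adjusted P = 0.119). Per kilobase of exon, *Npm1*, *Ncl* and *Ddx21* were the 3 most abundant of the 57 genes in controls, at 3075, 1609.6 and 1098 normalized counts per kilobase, and *Wdr12* the least, at 20.7. Exon length merges the exons of all annotated transcripts (11955 bases for *Wdr12*), so these ranks depend on the annotation. By mean count in controls *Polr1e* was the lowest, at 151.2, with *Wdr12* at 247.7.

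RNA polymerase I makes the precursor of the ribosomal RNAs. Its largest subunit, *Polr1a*, lies on chromosome 6 of GRCm38 from 71909053 to 71984935 and had counts of 470.3, 724 and 456 in replicates 1, 2 and 3 of controls and 814, 1088 and 1237 in those of iECKO. Its mean rose from 550.2 ± 151 (SD, n = 3) in controls to 1046 ± 215 (SD, n = 3) in iECKO (log2 fold change 0.94, SE 0.22, adjusted P = 0.0388), the only gene of the step to pass. The lowest iECKO library was above the highest control. The other catalytic subunit, *Polr1b*, had a log2 fold change of 0.52 (adjusted P = 0.187), with control replicate 2 above iECKO replicate 1. *Tcof1*, or treacle, a nucleolar cofactor of the polymerase, was at 0.44 (adjusted P = 0.0573) without overlap. *Polr1e* was at 0.40, and *Rrn3*, the initiation factor that brings the polymerase to its promoter, at 0.20 (adjusted P = 0.249 and 0.325). *Polr1c*, a subunit shared with RNA polymerase III on chromosome 17 of GRCm38 from 46243920 to 46248054, was the lowest of the step. Its counts were 626, 597 and 618 in controls and 631, 745 and 623 in iECKO (log2 fold change 0.11, SE 0.11, adjusted P = 0.585), which overlapped.

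The small-subunit processome had the lowest median of the 7 steps. Of its 14 genes 4 rose, and 9 had no overlap between genotypes, where the shares of all genes tested were 3.28% and 14.7%. *Utp20*, a large scaffold protein on chromosome 10 of GRCm38 from 88746607 to 88826804, had counts of 964, 1191 and 997 in replicates 1, 2 and 3 of controls and 1434, 1759.5 and 2062 in those of iECKO (log2 fold change 0.73, SE 0.15, adjusted P = 0.0267). *Heatr1* and *Wdr75*, which join the precursor early, rose at 0.64 and 0.56 (adjusted P = 0.048 and 0.045), and *Nop14* at 0.45 (adjusted P = 0.0465). *Utp15* and *Wdr43*, of the same early complex, were at 0.56 and 0.64 and did not pass (adjusted P = 0.0511 and 0.122). *Wdr43* ranged widely in iECKO, at 1067, 1490.2 and 1931, and control replicate 1 (1147) exceeded iECKO replicate 1. *Imp4* was at 0.41, *Utp18* at 0.34, the methyltransferase *Emg1* at 0.27, the helicase *Ddx10* at 0.27 and *Utp14a* at 0.24, none of which passed. *Noc4l* (0.11) and the helicase *Ddx52* (0.07) were close to 0. *Imp3*, a U3 snoRNP protein and partner of *Imp4* on chromosome 9 of GRCm38 from 56937475 to 56938398, was the only one of the 57 genes with a fold change below 0. Its counts were 1095, 792 and 1088 in controls and 904, 1009 and 903 in iECKO, which overlapped (log2 fold change -0.07, SE 0.14, adjusted P = 0.824), and its fold change was above 0 without control replicate 1 or without control replicate 3.

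**Figure D4:**
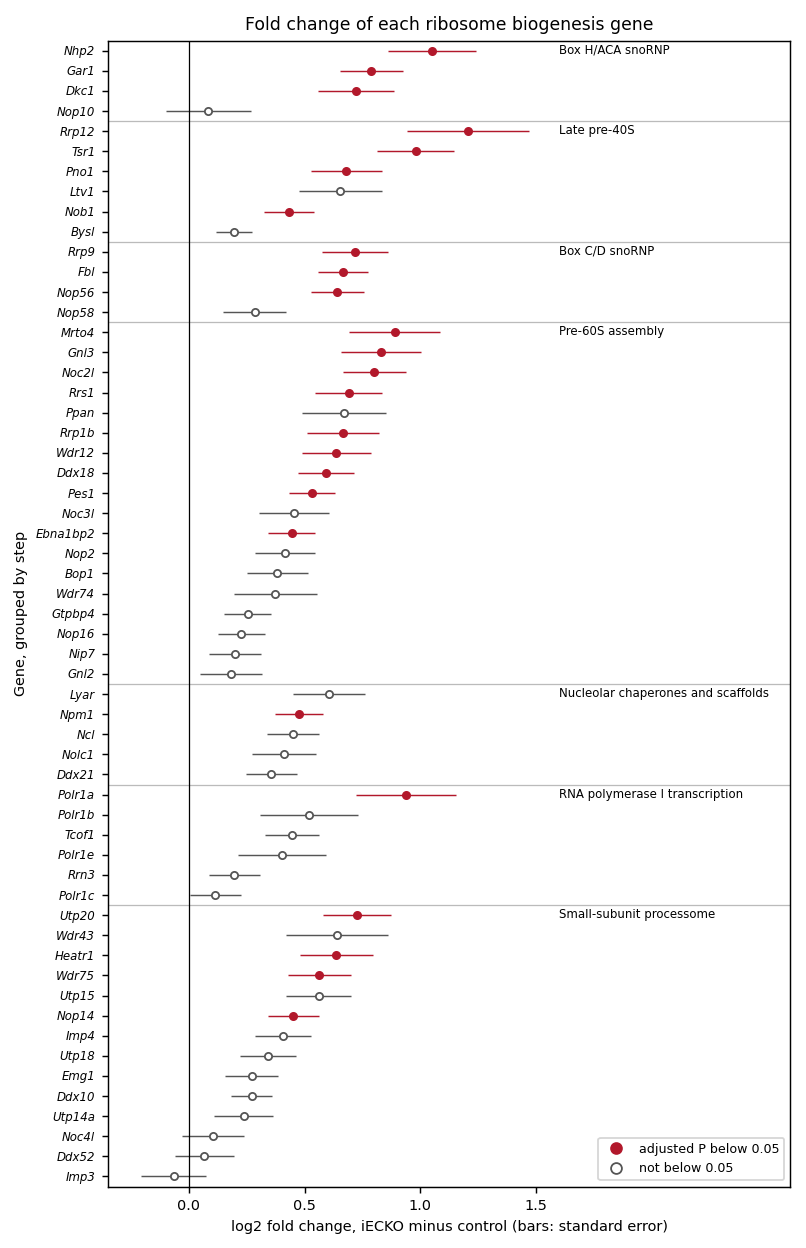
Points give the log2 fold change of each of the 57 genes, iECKO minus control, with its standard error as a bar, sorted within steps (filled red, adjusted P value below 0.05). The values run from -0.07 for Imp3 to 1.21 for Rrp12, and the 25 filled points are found in all 7 steps.

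The 57 genes lie on 19 chromosomes, with at most 7 on any of them and 2 on the X chromosome. Their median exon length was 3837 bases, against 4407 over the tested genes, and the median GC content of the longest transcript was 48.3% against 49.8%. Their median level in controls was 653 normalized counts, against 529. Across the 57 genes, which share libraries and are not replicates, Spearman's rho of the log2 fold change was -0.29 with the control level, 0.12 with exon length and 0.18 with GC content.

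Further genes of the pathway, on lists that hold none of the 57, had medians above 0 that were lower than the 0.45 of the 57 genes. Over all genes tested 3.28% rose and 4.97% fell. Of 46 other large-subunit factors 7 rose and 0 fell, with a median of 0.36, and the highest was *Rrp15* (log2 fold change 1.05, SE 0.21, adjusted P = 0.0274). The others that rose were *Nol8*, *Mdn1*, *Sdad1*, *Nle1*, *Eif6* and *Urb1*, and the lowest value was that of *Nop53* (-0.32, adjusted P = 0.107). Of 31 other small-subunit factors 3 rose and 0 fell, with a median of 0.31. They were *Nat10* (0.82, adjusted P = 0.0141), an acetyltransferase of ribosomal RNA, *Pwp2* (0.60, adjusted P = 0.0496) and *Nol6* (0.59, adjusted P = 0.0274), and *Utp4* was lowest at -0.03. Of 11 other RNA polymerase I factors 0 passed by limma (1 at an unadjusted P value below 0.05) and 1 had no overlap in each direction. Over all genes tested 11.6% were higher and 12.3% lower at such an unadjusted P value. No overlap was found in 14.7% with higher and 15% with lower values. The median of the 11 factors was 0.09, with 0.41 for *Taf1d* and -0.16 for *Baz2a* at the ends. Of 15 host RNAs of snoRNAs, whose introns carry the guide RNAs of the snoRNPs, *Snhg15* and *Snhg17* rose (1.18 and 1.10, adjusted P = 0.0499 and 0.036), with a median of 0.19 and *Snhg18* lowest at -0.92.

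The cytosolic ribosomal proteins, which these factors assemble with ribosomal RNA, had a median log2 fold change of -0.05 over 79 genes, of which 23 were above and 56 below 0. *Rps2* (0.45, adjusted P = 0.0239) and *Rps27* (1.89, adjusted P = 0.00558) rose and none fell. Over all genes tested 3.28% rose and 4.97% fell, so 2 of 79 is no more than the share of all genes. *Rpl26* had the highest value (2.38, adjusted P = 0.423) and *Rpl34* the lowest (-0.53). Genes for ribosomal proteins have many processed copies, so single values are uncertain. The aminoacyl-tRNA synthetases, which charge transfer RNAs for translation, were closer to the ribosome biogenesis genes. Of 20 genes 10 rose and 0 fell, with a median of 0.45, from -0.17 for *Qars* to 0.84 for *Iars*. *Myc* was at 803, 828 and 545 in controls and 1228, 1172 and 1385 in iECKO and rose (log2 fold change 0.82, SE 0.17, adjusted P = 0.0274), with no overlap. It was the only gene of the *Myc* network of 11 to pass. The median of that list was 0.03, and *Mxd4* was lowest at -0.32.

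Proliferation markers were also higher in iECKO iLECs. Of 30 genes 20 rose and 0 fell, where 3.28% and 4.97% of all genes tested did. The median of the 30 was 0.96, from 0.51 for *Ccnb2* to 1.32 for *Cdc6*. Their summed level was 35442 to 62414 in controls and 78728 to 90584 in iECKO. By library, their median difference from the control mean was -0.32, 0.52 and -0.20 in controls and 0.94, 1.07 and 0.86 in iECKO replicates 1, 2 and 3. Control replicate 2 was thus the highest control for both lists. iECKO replicate 1, the lowest iECKO library for ribosome biogenesis genes, lay between the other iECKO libraries for proliferation markers. The part of proliferation in the ribosome biogenesis values was not tested. The median log2 fold change of 15 endothelial markers was 0.03, with *Tek* lower (log2 fold change -0.53, SE 0.11, adjusted P = 0.0292) and *Emcn* highest at 0.27. It was -1.48 for 14 fibroblast markers, from -1.84 for *Mfap4* to 1.12 for *Pi16*, and -1.51 for 13 mural and smooth muscle markers, from -1.94 for *Rgs5* to -1.13 for *Cnn1*. It was -0.14 for 13 epithelial markers, of which only *Scgb1a1* passed (1.75, adjusted P = 0.0408) and *Krt18* was lowest at -0.36. For 12 leukocyte markers it was 0.26, from -0.23 for *S100a9* to 0.89 for *Marco*, and for 6 erythroid markers -0.56, with *Hba-a2* lowest at -1.19.

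**Figure D5:**
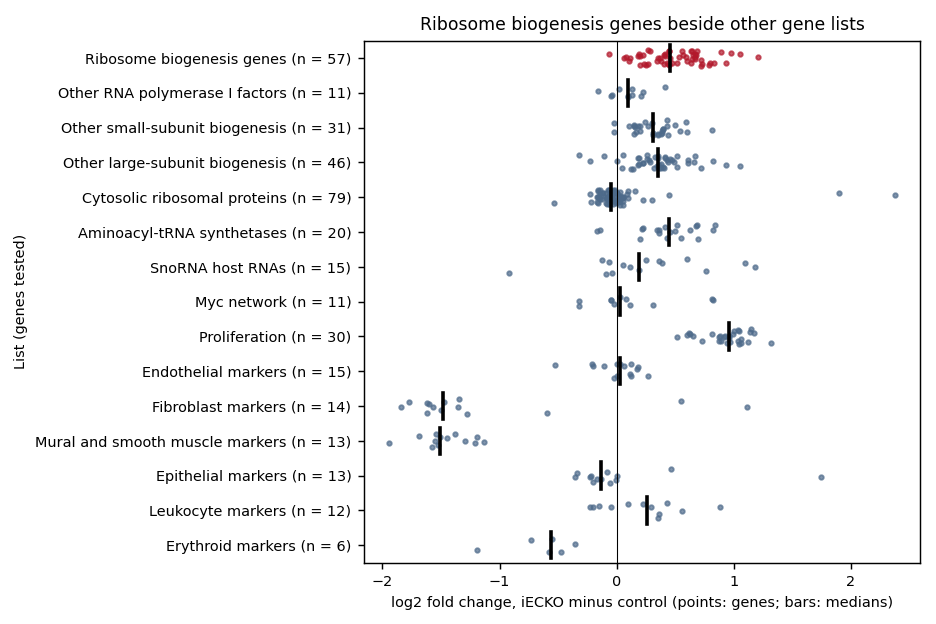
Points give the log2 fold change, iECKO minus control, of each tested gene of a list, and bars give the list's median. The ribosome biogenesis genes (red, median 0.45) lie to the right of 0 with 1 exception, ribosomal proteins center near 0 (-0.05), proliferation markers are higher (0.96), and fibroblast and mural markers lie far to the left (-1.48 and -1.51).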

How the data were processed

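The ribosome biogenesis genes and all other gene lists were chosen with earlier results of these data known. Per the labels and the study's methods, the authors aligned TruSeq mRNA reads to mm10 and quantified genes with BaseSpace tools, and deposited 1 table of 24972 symbols in 6 libraries. The deposited values are a normalized signal. They are called raw in the labels but hold fractions, and the median over genes of each library's ratio to the geometric mean was 1.0036 in every library, as size factors leave it. The annotation and the strand setting of the counting are not given in the sources used here.

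Genes that reached 10 in 3 or more libraries (14456) were tested on the log2 of the value plus 1 with limma 3.58.1 in R 4.3.3 (mean-variance trend, no covariate, 3 control and 3 iECKO libraries). P values were two-sided and adjusted by the Benjamini-Hochberg method over all genes tested, with a threshold of 0.05. For single values, the smallest exact P value of 3 against 3 would be 0.1, so none was computed. Coordinates and exon lengths were from GENCODE M21 (GRCm38), to which 24493 symbols matched, and near-identical transcripts from BLAST 2.17.0. Given in full were, for each step, the genes with the highest and the lowest fold change, the 8 genes with the smallest adjusted P values, *Atp6ap2*, the ends of each list, and passing genes of the *Myc* network. The upper end of 1 list is not reported here. Alternatives were other scalings, filters, pseudocounts, thresholds and variance models, the replicate block, an *Xist* term, *Xist*-high libraries alone and each replicate left out.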

Additional observations from a re-analysis of the deposited data

How the results depend on the processing

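The median log2 fold change of the 57 genes and those of the 7 steps moved by less than the spread between replicates, and kept their direction, in all 152 recomputed values. Part of these values could not move. Other filters and variance models, the replicate block and the *Xist* covariate leave the fold changes of these genes unchanged. The number of ribosome biogenesis genes that rose (25) was 4 with endothelial marker scaling (added after seeing the data), 12 with the *Xist* covariate, 0 in the libraries with *Xist* above 1000 only, 1 with no mean-variance trend (304 of all genes changed, against 1193) and 0 at an adjusted P value below 0.01 (90 of all genes). It was 0 to 27 with a replicate left out. The cause was not tested. The *Xist* restriction and each omission also leave fewer libraries. Same-numbered libraries correlated in their deviations from the mean of their genotype by 0.25, 0.11 and 0.08, and 5 of 6 libraries correlated best with their own number, which is a hint from the data and not the design. With the replicate block 31 genes rose, 24 of them among the 25, where 4.63% of all genes rose. Of 21 genes followed singly, *Imp3* (-0.07) was at 0.014 without control replicate 1 and 0.0094 without control replicate 3, with a range over single omissions from -0.22 to 0.014, and *Nop10* (0.08) was at -0.057 without iECKO replicate 3, with a range from -0.057 to 0.24. Of their 441 recomputed values, 96 no longer passed and 7 newly passed. The depth in reads is unknown, so precision rests on 3 libraries per genotype.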
